A study of Drosophila melanogaster with 30 samples.

Results

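The ecdysone receptor (EcR) is a nuclear receptor that binds DNA together with Ultraspiracle and switches genes on or off in answer to the moulting hormone ecdysone. Pulses of this hormone drive metamorphosis in Drosophila melanogaster, during which the larval nervous system is pruned and rebuilt. EcR-A is 1 of the receptor's isoforms, which differ at the amino terminus. The fru P1 transcripts are spliced by sex and yield the transcription factor FRUM in males only, in neurons that serve male behaviour.

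The subject here is a set of 104 array probes whose ratio between EcR-A RNAi males and their controls had the same sign at 0 h after puparium formation (APF) and in adults, called members below. A member had a stage value of at least 0.25 log2 units in size at both stages. The stage value is the mean of the means of both dye orientations, and it needed at least 3 values, with 1 or more in each orientation. Of 15744 probes on the array after 32 control spots were left out, 4853 could be assessed at both stages, so the members made up 2.14% of those. A further 11 probes passed 0.25 at both stages with opposite signs. The members were chosen by the ratios of the arrays at 0 h and in adults, so those values are a description and carry no test. Probes bear only plate positions as names (plate, row and column), with no gene names, so the probes for EcR itself or for fru could not be pointed out and the strength of the knockdown was not checked.

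The experimental males carried fru P1-GAL4 and uas-EcRA RNAi, and the controls carried fru P1-GAL4 without the RNAi construct (fru P1-GAL4; +). GAL4 was thus present in both, and expression of the RNAi was limited to cells in which the fru P1 driver is active, while RNA came from the whole dissected tissue of about 20 animals. Brain and ventral nerve cord were taken at 0 h APF, and brain at 48 h APF and in adults up to 24 h old (4 arrays each). Every array compared 2 samples directly with Cy5 and Cy3, and 2 arrays of each 4 had the RNAi sample in Cy5. The other experiments, all at 48 h APF, compared fru-440/fru-P14 males with Canton S males and w; fru-w12/fru-ChaM5 males with w; Berlin males, in the whole body of about 30 pupae (4 arrays each) and in the central nervous system (CNS, 3 arrays each), and female with male CNS of Canton S (4 arrays). The submitters describe the samples of an experiment as biologically independent. An array held 3934 to 11533 values, and its titles name CNS where the extraction notes of the 48 h and adult RNAi samples name brain. With probes unnamed, tissue markers were not checked. In bulk tissue, fewer cells of a type and less RNA per cell cannot be told apart.

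All ratios carry the sign in which they were deposited, and the labels do not say which sample a positive ratio favours. The ratios were read as already turned to 1 direction within each experiment. Between the sexes, 23 probes exceeded a size of 1 on all 4 arrays, of which 22 kept a single sign and 0 followed the dyes, so the contrast between the dye orientations of the sex arrays was taken as a dye component. Across probes, this dye component correlated with the same component of the RNAi arrays with Pearson's r = 0.46 at 0 h (5098 probes) and 0.63 in adults (5072 probes). Its correlation with the stage values themselves was r = -0.01 at 0 h and 0.08 in adults. Had the RNAi ratios run Cy5 over Cy3, the stage values would hold the dye component. These points share arrays and probe sequence, and genes are not independent replicates. Read as Cy5 over Cy3, the same selection would give 1115 probes. Only 14 of the 104 members would be among them, 9 with the same sign, so the set would be mostly a different one.

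Members were mostly of positive sign. The positive side held 88 members (84.6%) and the negative side 16, whereas 49.4% of assessed probes were positive at 0 h and 53.6% in adults. The stage values of the positive members ran between 0.26 and 2.02 at 0 h (median 0.50) and between 0.25 and 2.65 in adults (median 0.36). Those of the negative members ran between -0.60 and -0.27 at 0 h (median -0.36) and between -0.71 and -0.26 in adults (median -0.39). Past 0.5 at both stages lay 12 positive and 0 negative members. DAC007K08, the positive member nearest to the limit of 0.25, had 0.46 at 0 h and 0.251 in adults. DAC034A06 just outside had 0.35 at 0 h and 0.248 in adults. DAC027K21, the negative member nearest to the limit, had -0.28 at 0 h and -0.257 in adults, and DAC033F23 just outside had -0.29 at 0 h and -0.246 in adults.

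Agreement of the stage values did not mean agreement of the arrays. Only 2 of the 104 members, DAC027H03 and DAC002J17, had 1 sign on every array that measured them. A further 46 had the opposite sign on 1 array, and 42 of these were positive members. DAC027H03, the one member with a single sign on all 8 arrays, had 0.49, 0.00, 0.13 and 0.86 on replicates 1 to 4 at 0 h. In adults it had 0.62, 0.30, 0.05 and 0.13. DAC027H03 was thus near 0 on 1 array of each stage, and its stage values of 0.37 at 0 h and 0.27 in adults were close to the limit. The median gap between 2 arrays of the same stage and dye orientation was 0.54 log2 units for members and 0.25 for the other assessed probes. This gap is larger than most members' stage values.

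The positive members were highest on 1 array at each stage. Their median was 0.17, 0.20, 0.22 and 0.90 log2 units on replicates 1 to 4 at 0 h, and 0.99, 0.10, 0.38 and 0.19 on replicates 1 to 4 in adults. Replicate 4 at 0 h, with the RNAi sample in Cy3, and replicate 1 in adults, with the RNAi sample in Cy5, stood above the others, so the arrays that led the set differ in dye orientation. The median of the other assessed probes lay between -0.03 and 0.02 on these 8 arrays. The 2 leading arrays also had the widest spread over all probes at their stage. The SD over all probes was 0.54 on replicate 4 at 0 h, against 0.35 to 0.49 on replicates 1 to 3. In adults it was 0.69 on replicate 1, against 0.47 to 0.52 on replicates 2 to 4. The part of this spread in the members' ratios was not tested. Replicate 4 was the highest 0 h array for 59 of the 88 positive members, and replicate 1 the highest adult array for 60. Both held for 52 members (59.1%), against 433 of the 4749 other assessed probes (9.12%). Across members the 2 arrays correlated with r = 0.74 (103 probes), and across the other assessed probes with r = -0.01 (4586 probes). The selection favours such agreement, so these figures describe the set and support nothing further.

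Missing cells gave replicate 4 at 0 h more weight. Replicate 3, the other 0 h array with the RNAi sample in Cy3 besides replicate 4, had no value for 35 members (33.7%), against 2.53% of the other assessed probes. For those 35 members replicate 4 alone made up that dye orientation. Of them, 33 were positive, and 28 of the 33 were among the 52 that were highest on replicate 4 at 0 h and replicate 1 in adults. In these 33, the median on replicate 4 at 0 h was 1.00, whereas the mean of replicates 1 and 2 had a median of 0.18. Where replicate 3 had a value (55 positive members), the medians were 0.74 and 0.25.

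Leaving out arrays changed the set. Without replicate 4 at 0 h, 37 probes met the selection, and 30 of the 60 members that could still be assessed remained. Without replicate 1 in adults, 48 did, and 32 of 85 members remained. With both left out and 2 values per stage accepted, a setting chosen after these values were seen, 48 probes met it (33 positive, 15 negative, against 25 with opposite signs), and 22 of 60 members remained. The count was 60 without replicate 1 at 0 h and 208 without replicate 2 in adults. Requiring 2 values in each dye orientation left 49 members, 45 of them positive.

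Among the probes with high stage values a pair of profiles recurred, described here after their values were seen, though not every such probe had one of them. DAC015J01, with a 0 h stage value of 1.74, had 1.91, 1.51 and 1.63 on replicates 2 to 4 at 0 h and 1.41, 1.07, -1.41 and 0.68 on replicates 1 to 4 in adults, and had neither. In the first profile, the ratio was high on replicate 4 at 0 h and on replicate 1 in adults. DAC002K24 had -0.34, 0.52 and 3.54 on replicates 1, 2 and 4 at 0 h, and 4.36, 0.81 and 1.07 on replicates 1, 3 and 4 in adults. DAC002J17 had 0.03, 0.84 and 3.61 on the same 0 h arrays, and 2.29, 1.02 and 1.11 on the same adult arrays. Both lacked a value on the remaining arrays, so their stage values of 1.82 and 2.65 for DAC002K24 and of 2.02 and 1.68 for DAC002J17 give 1 array the weight of a whole dye orientation at each stage. DAC007O20, with values on all 8 arrays, had -0.49, 0.57, 0.22 and 2.50 at 0 h. In adults it had 2.26, -0.64, 1.32 and -0.27. DAC016D09 had 0.12, 0.17, -0.21 and 2.34 at 0 h, and 1.19, 0.28, 0.23 and 0.62 in adults. On the other arrays these 4 probes lay between -0.64 and 1.32.

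In the second profile, the ratio was positive on 7 arrays and negative on replicate 1 in adults, the array on which the first profile was high. DAC007O08 had 2.32, 2.02, 0.59 and 0.38 on replicates 1 to 4 at 0 h. In adults it had -0.86, 1.36, 0.93 and 1.51. DAC029H22 followed it closely, at 2.35, 1.85, 0.29 and 0.32 at 0 h and -0.82, 1.30, 0.81 and 1.40 in adults. The same 7 arrays were positive for DAC015O13, DAC019P10, DAC029L24, DAC029L18 and, where measured, DAC029J04, whose values on replicate 1 in adults lay between -1.88 and -0.77. Over the 8 arrays, DAC029H22, DAC015O13 and DAC019P10 correlated with DAC007O08 with r = 0.99, 0.99 and 0.96. Of the 4728 assessed probes that share at least 7 arrays with DAC007O08, 10 reached r = 0.9, and 4 of these were members, the fourth being DAC022N17 at 0.92. In all, 21 of the 88 positive members were below 0 on replicate 1 in adults. In adults, replicates 1 and 2, both with the RNAi sample in Cy5, had opposite signs for each of these 7 probes.

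The 16 negative members had another pattern, which leaned to 1 dye orientation. Their median was -0.81 and -0.59 on replicates 1 and 2 at 0 h, and -0.84 and -0.52 on replicates 1 and 2 in adults, all with the RNAi sample in Cy5. With the RNAi sample in Cy3, it was 0.21 and -0.28 on replicates 3 and 4 at 0 h, and 0.03 and 0.10 in adults. Below 0 were 15 of 15 and 14 of 14 members on replicates 1 and 2 at 0 h, and 15 of 16 and 9 of 12 in adults. On replicates 3 and 4 the counts were 5 of 14 and 12 of 16 at 0 h, and 7 of 14 and 6 of 14 in adults. Negative values thus came more from 1 dye orientation, though replicate 4 at 0 h was also mostly below 0. DAC020K13 had -0.54, -0.67 and -0.60 on replicates 1, 2 and 4 at 0 h, and -0.76, -1.52, 0.27 and 0.30 on replicates 1 to 4 in adults. DAC007J12 had -1.68, -0.28, 0.37 and -0.40 at 0 h, and -0.84, -1.34, 0.99 and -1.16 in adults. Of the 16, 4 had the positive sign on 1 array and the other 12 on more. The part of the dyes in this was not tested.

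At 48 h APF, between both stages of the selection, the same RNAi comparison was made on 4 arrays that did not choose the members. Most positive members had no value there. On replicates 1 to 4, a value was given for 30.7%, 22.7%, 33.0% and 36.4% of the 88 positive members, for 100%, 68.8%, 68.8% and 75% of the 16 negative members, and for 79.4%, 66.7%, 67.3% and 88.0% of the other assessed probes. Positive members thus had fewer values than both other sets on all 4 arrays. It was largest in the first profile: 40 of the 52 positive members highest on replicate 4 at 0 h and replicate 1 in adults had no value on any 48 h array, against 10 of the other 36 positive members and 374 of the 4749 other assessed probes (7.88%). The same 52 had a value on a median of 9 of the 10 sex and fru CNS arrays, against 10 for the other assessed probes. Why cells are empty is not given in the sources used here, and signal over background is unknown.

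The values that were present at 48 h mostly kept the sign of the members on some arrays and not on others. Replicate 1 is on the log2 scale, and there 1 of 27 positive members was above 0 (median -0.38), whereas the other assessed probes had a median of 0.02. Of these 27, only 2 were among the 52 highest on replicate 4 at 0 h and replicate 1 in adults. The remaining 25 were among the 36 other positive members, so the 52 were almost unmeasured on this array. Replicates 2, 3 and 4 have an SD over all probes of 2.67, 2.21 and 1.41, against 0.35 to 0.69 on the other 27 arrays, so their values are scores of unknown scale and no fold is given. Above 0 on these were 11 of 20, 3 of 29 and 23 of 32 positive members, with medians of 1.70, -2.87 and 0.40 in score units, against 0.27, 0.16 and 0.19 for the other assessed probes. The positive members with a value thus lay mostly below 0 on replicates 1 and 3, which differ in dye orientation, and mostly above 0 on replicate 4. On replicate 2 they were mixed: the 3 measured members of the 52 had a median of 3.95 and the 17 other positive members one of -0.04. Of the negative members, 7 of 16, 7 of 11, 2 of 11 and 4 of 12 were below 0 on replicates 1 to 4. Their medians were 0.03, -0.92, 0.87 and 0.56, the last 3 in score units. DAC007O08 had -1.46, 2.69, -3.57 and 3.74 on replicates 1 to 4. DAC029H22 had -0.96, 3.43, -3.54 and 3.37. These 2 probes, so alike at 0 h and in adults, moved alike at 48 h too, with a sign that changed between replicates of the same comparison. By limma, 0 of 33 members tested at 48 h passed an adjusted p of 0.05 (1 with an unadjusted p under 0.05). Of all 4302 probes, 1 passed (0.0232%), and 117 had an unadjusted p under 0.05. This fit took the log2 array and the 3 score arrays as if on 1 scale, so it cannot decide whether members changed at 48 h.

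The sex and fru experiments were fitted without the RNAi arrays, so their tests do not use the values that chose the members. All calls below are from limma with Benjamini-Hochberg adjustment over all probes tested, at a threshold of 0.05. In the female against male CNS comparison, 0 of 85 members tested passed, against 0.809% of all 7414 probes. The smallest adjusted p of a member by limma was 0.335, for DAC031L03. At an unadjusted p under 0.05 there were 10 members (11.8%) and 619 of all probes (8.35%). The median effect was 0.02 log2 units for positive members, -0.03 for negative members and 0.01 for all probes.

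In the fru mutant against wild-type CNS comparison, 1 of 87 members passed, against 1.03% of all 7461 probes. This was DAC008N17, with values of 0.95, 0.76 and 0.71 in the w; fru-w12/fru-ChaM5 pair and 0.53 and 1.17 in the fru-440/fru-P14 pair. All 5 values were positive, and the effect was 0.83 ± 0.13 log2 units (SE, n = 5 arrays, 1.77-fold, limma adjusted p = 0.021). The call was lost without replicate 2, 3 or 5 (limma adjusted p = 0.0976, 0.0911 and 0.114), where the effect was 0.84, 0.85 and 0.67. It was also lost without the dye term (0.82, limma adjusted p = 0.104) and with the RNAi arrays in the fit (0.83, limma adjusted p = 0.0638), with the adjusted p between 0.0177 and 0.922 over all alternatives. On the RNAi arrays DAC008N17 was less even, at 1.06, 0.57, 1.09 and 0.05 at 0 h and -1.11, -0.57, 2.39 and 0.92 in adults. Each allele pair had 1 dye orientation only in the CNS, so allele pair and dye cannot be told apart. The median effect was -0.01 for positive members, 0.05 for negative members and -0.03 for all probes.

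The whole-body arrays gave more calls, among members as over the whole array. In the fru-440/fru-P14 against Canton S comparison, 3 of 73 members passed (4.11%), all with a negative effect, against 7.94% of all 6394 probes. In the w; fru-w12/fru-ChaM5 against w; Berlin comparison, 8 of 94 members passed (8.51%), 5 with a positive and 3 with a negative effect, against 15.1% of all 9699 probes. The difference between these shares was not tested. Among the 8, DAC038H15, DAC028P22, DAC012E12, DAC029J04 and DAC007J12 had effects of 0.34 to 0.73, and DAC038M03, DAC029L18 and DAC031L03 of -1.19 to -0.68. The calls of DAC007J12 and DAC029J04 were each lost in 6 of 9 alternatives, among them without replicate 5, 6 or 8 (limma adjusted p of 0.0704 to 0.101 for DAC007J12 and 0.112 to 0.143 for DAC029J04). That of DAC029L18 was lost without replicate 5, 6 or 7 (limma adjusted p = 0.0686, 0.074 and 0.056), and that of DAC028P22 without replicate 5 (limma adjusted p = 0.0687). RNA of the whole body was labelled during reverse transcription and CNS RNA after amplification, so levels were not set across them.

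DAC038M03 was the only member called in both whole-body pairs. It had -1.09, -1.20, -1.25 and -2.02 in fru-440/fru-P14 males against Canton S, and -1.71, -1.21, -1.08 and -0.75 in w; fru-w12/fru-ChaM5 males against w; Berlin. It was negative on all 8 whole-body arrays. The effect was -1.39 ± 0.18 (SE, n = 4, 2.62-fold, limma adjusted p = 0.00123) in the first pair and -1.19 ± 0.18 (SE, n = 4, 2.27-fold, limma adjusted p = 0.00317) in the second. Both calls held when any 1 replicate of the pair was left out. Read as Cy5 over Cy3 neither passed, and the effect in the first pair was 0.25 (limma adjusted p = 0.797), with the adjusted p between 0.00092 and 0.797 over all alternatives. In the CNS its fru effect was -0.18 ± 0.13 (SE, n = 6, limma adjusted p = 0.572), and on the RNAi arrays it had 1.24, 0.64 and 0.48 on replicates 1, 2 and 4 at 0 h and 0.66, 0.07 and -0.32 on replicates 1, 3 and 4 in adults.

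The difference between the allele pairs passed for 11 of 72 members tested (15.3%), against 24.0% of all 6204 probes. It passed for 7 of 63 positive and 4 of 9 negative members. Among the negative members, DAC031L03 and DAC020K13 had the smallest p. DAC020K13 had -0.68, -0.96 and -1.57 in fru-440/fru-P14 males, and 0.88, 0.45, 0.49 and -0.35 in the w; fru-w12/fru-ChaM5 pair. Its effect was -1.18 ± 0.17 (SE, n = 3, limma adjusted p = 0.00314) in the first and 0.37 ± 0.15 (SE, n = 4, limma adjusted p = 0.122) in the second. The difference, first minus second, was -1.54 ± 0.22 (SE, limma adjusted p = 0.00151). The call in the first pair rests on 3 arrays, and it could not be tested without replicate 1, 2 or 3. DAC031L03 had 0.20, 0.20, 0.44 and 0.55 in fru-440/fru-P14 males, and -0.70, -0.84, -0.38 and -0.79 in the w; fru-w12/fru-ChaM5 pair. The pairs did not overlap. Its effect passed in the w; fru-w12/fru-ChaM5 pair alone (-0.68 ± 0.10, SE, n = 4, limma adjusted p = 0.00303), and the difference was 1.03 ± 0.13 (SE, limma adjusted p = 0.000789). The pairs differ in fru alleles and in wild-type strain.

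The other members of smallest p among those called were positive members. DAC038H15 had 1.17, 0.79, 0.57 and 0.38 in the w; fru-w12/fru-ChaM5 pair (0.73 ± 0.11, SE, n = 4, limma adjusted p = 0.00369), and 0.15, -0.30, -0.35 and -0.31 in the fru-440/fru-P14 pair. The difference between pairs, fru-440/fru-P14 minus w; fru-w12/fru-ChaM5, was -0.93 ± 0.15 (SE, limma adjusted p = 0.00232). DAC033J20 had -0.49, -0.47, -0.74 and -0.14 in fru-440/fru-P14 males, and -0.31, -0.05, -0.46 and 0.08 in the w; fru-w12/fru-ChaM5 pair. Its effect in the first was -0.46 ± 0.12 (SE, n = 4, limma adjusted p = 0.0478), and the call was lost without replicate 1, 2 or 3 (limma adjusted p = 0.139, 0.131 and 0.195; 0.0363 to 0.992 over all alternatives). Over both signs the difference between pairs passed for 11 of 72 members (15.3%), against 24.0% of all probes tested.

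The members named for their profiles also varied in the experiments that did not choose them. DAC027H03, with 1 sign on all 8 RNAi arrays, had 0.70, 0.61 and 0.49 in the w; fru-w12/fru-ChaM5 CNS and -0.21, -0.24 and -0.22 in the fru-440/fru-P14 CNS. In the female against male CNS DAC027H03 had 0.10, 0.78, -0.38 and -0.58 on replicates 1 to 4. The sign of DAC027H03 thus followed the dye orientation on the sex arrays. In the fru CNS it differed between the allele pairs, each of which had 1 dye orientation only. There dye, alleles and wild-type strain cannot be told apart. DAC007O08 had -0.34, -1.02 and -1.75 in the w; fru-w12/fru-ChaM5 CNS and 1.53, 1.25 and 0.89 in the fru-440/fru-P14 CNS. In the female against male CNS it had -0.70, -0.30, 1.09 and 0.62 on replicates 1 to 4. The sign of DAC007O08 likewise followed the dye orientation on the sex arrays and differed between the allele pairs in the fru CNS, with the same limit. None of its tested effects passed (limma adjusted p between 0.077 and 0.999). In the whole body of the w; fru-w12/fru-ChaM5 pair it had -1.44, -0.90, -1.54 and 0.51. DAC015O13 had -1.28, -0.79, -1.48 and 0.53 on those arrays, and DAC029H22, with no value on replicate 6, -0.59, -1.95 and 0.60. Within this pair, replicate 8 was the only array above 0 for each of these 3 probes.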

How the data were processed

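The 30 arrays, each of 2 channels, were used as deposited. The authors processed them with limma, according to the submitters' processing notes. How background was corrected and arrays normalized is not given in the sources used here. On 27 arrays the deposited values are log2 ratios of both channels. On RNAi replicates 2, 3 and 4 at 48 h the deposited values are scores of unknown scale. No value was imputed or rescaled, and 32 control spots were left out. Ratios were read as already turned to 1 direction.

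Effects were fitted with limma 3.58.1 (R 4.3.3), with dye orientation as a term and Benjamini-Hochberg adjustment over all probes tested. A probe needed values on 75% of an experiment's arrays and in each orientation. The 10 sex and fru CNS arrays shared 1 fit, the 8 whole-body arrays another, and the 4 RNAi arrays at 48 h were fitted on their own. The test of the difference between allele pairs was added after the data were seen. The fits were also run on simulated data with independent normal noise and a dye term. These data did not model the differing scales of the 48 h arrays, and no result here rests on them. Precision is limited by how many arrays there are.

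The members and lists were chosen with earlier results of these data known. Probes were named by rule: members of 1 sign on 7 or more RNAi arrays (DAC027H03 alone met it), up to 3 called members of smallest p per comparison, and those nearest the limit. Other named probes were chosen after their values were seen. Alternatives were another reading of the ratio, stricter coverage, other scaling, no dye term, separate fits and leaving out each replicate.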

Additional observations from a re-analysis of the deposited data

Results flagged for a closer look

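The median of the positive members on replicate 4 at 0 h was 0.90 log2 units and stood apart from the other 3 arrays of that stage, which had 0.17, 0.20 and 0.22. The selection used these values. DAC038H15 had 0.15 on replicate 1 of the whole-body fru-440/fru-P14 arrays and lay apart from -0.30, -0.35 and -0.31 on the others. These were 2 of 39 groups of arrays examined for a distant sample, and chance alone gives about 1 in 20.

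The whole-body fru effect of 11 of 72 members differed between the allele pairs by a test of the difference itself (fru-440/fru-P14 minus w; fru-w12/fru-ChaM5). The difference was -1.54 for DAC020K13, 1.03 for DAC031L03 and -0.93 for DAC038H15, by limma with adjusted p of 0.00151, 0.000789 and 0.00232. It was 1.07 for DAC029L18, 0.98 for DAC019P12, 0.69 for DAC002J17 and 0.46 for DAC015H20, and -0.51 for DAC019F17, -1.01 for DAC015J01, -0.46 for DAC012E12 and -0.52 for DAC039G24, by limma with adjusted p of 0.00879 to 0.0447. Such differences passed for 24.0% of all probes tested.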

How the results depend on the processing

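The number of members was 1115 when ratios were read as Cy5 over Cy3, with only 14 of the 104 among them. It was 49 with 2 values per dye orientation and 12 with a limit of 0.5. With replicate 4 at 0 h and replicate 1 in adults both left out, it was 48. Leaving out 1 array gave 37 to 208 members. Read as Cy5 over Cy3, 14 members were called for sex, 27 for fru in the CNS, 0 for fru-440/fru-P14 and 1 for w; fru-w12/fru-ChaM5 in the whole body. Fitted alone, the sex experiment called 1 member and fru-440/fru-P14 5. Without the dye term, 0 were called for fru in the CNS and 5 for w; fru-w12/fru-ChaM5. Leaving out 1 replicate gave 0 to 1 member for sex, 0 to 3 for fru in the CNS, 1 to 3 for fru-440/fru-P14, 6 to 13 for w; fru-w12/fru-ChaM5 and 0 to 0 at 48 h. The sign turned under Cy5 over Cy3 for DAC008N17 (-0.0201), DAC020K13 (0.0613), DAC038M03 in fru-440/fru-P14 (0.25) and DAC028P22 (-0.18). The effects of the other members called in these experiments kept their sign. That reading sets the contrast between dye orientations in place of the effect, so a sign can turn or hold. Over all probes, the calls for sex were 60, against 882 as Cy5 over Cy3 and 36 with 2 values per orientation. For fru in the CNS they were 77, against 2011 as Cy5 over Cy3, 30 fitted alone and 2 without the dye term. For fru-440/fru-P14 they were 508, against 0 as Cy5 over Cy3 and 230 without the dye term, and for w; fru-w12/fru-ChaM5 1463, against 4, 871 fitted alone and 769 without the dye term. Leaving out 1 replicate gave 18 to 54 calls over all probes for sex, 14 to 231 for fru in the CNS, 219 to 257 for fru-440/fru-P14, 850 to 1177 for w; fru-w12/fru-ChaM5 and 0 to 54 at 48 h. For other shifts the cause was not tested. No paired analysis was possible because each array already compares its 2 samples directly and no test was made between stages. Signal over background is unknown.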

Other observations

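The members came from 37 of the 40 plates with assessed probes. Over all assessed probes 2.14% were members. The share was highest on plate 2 (3 of 37, 8.11%), plate 29 (8 of 133, 6.02%) and plate 7 (6 of 110, 5.45%). Of the second profile, DAC029H22, DAC029L24, DAC029L18 and DAC029J04 were on plate 29. DAC007O08, DAC015O13 and DAC019P10 were on plates 7, 15 and 19. A link between plate and profile was not tested.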
